A study of Homo sapiens with 12 samples.

Results

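The 10 genes described here encode transcription factors and a coactivator of the B lineage: PAX5, EBF1, TCF3, FOXO1, POU2F2, POU2AF1, SPIB, IKZF1, IKZF3 and BACH2. They were picked by name, and all 10 were found by symbol among the 26210 genes of the expression table. RNA was measured by sequencing of total RNA depleted of ribosomal RNA, with 12 libraries in 6 conditions and 2 libraries in each. KM-H2, L1236 and L428 are cell lines from Hodgkin lymphoma, a tumour of B-cell origin whose cells have lost much of the B-cell programme. The controls are Namalwa, from Burkitt lymphoma, and Reh, labelled as a pro-B lymphoblastic leukaemia line. The last condition, Reh_PMA, is Reh treated with phorbol myristate acetate (PMA), an activator of protein kinase C, at 2 ng/ml. The other 5 conditions were untreated. The Hodgkin lines were grown in IMDM and the control lines in RPMI, so line class and medium cannot be told apart. Each condition is 1 established line and its pair of libraries, named library 0 and library 1 here, so every p-value of a single line measures the spread between such pairs and not between tumours. In bulk RNA, fewer cells with a transcript and less RNA per cell cannot be told apart.

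B-cell development runs through a hierarchy of transcription factors. TCF3 (E2A) and FOXO1 act early and turn on EBF1, EBF1 and TCF3 activate PAX5, and PAX5 then commits the cell to the B lineage by activating B-cell genes and repressing genes of other lineages. Further factors join them: the octamer-binding POU2F2 (OCT2) with its coactivator POU2AF1 (OBF1), the ETS family factor SPIB, the zinc finger proteins IKZF1 (Ikaros) and IKZF3 (Aiolos), and the repressor BACH2, which holds back plasma cell differentiation.

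Marker genes were compared with the labels first. Of 5 B-lineage markers, all 5 had a mean of at least 1 FPKM (fragments scaled by transcript length and by library depth) in Namalwa and 4 in Reh. Their summed levels were 925 and 1403 FPKM in the libraries of Namalwa and 848 and 975 FPKM in those of Reh. In L1236 and L428, 1 of the 5 reached 1 FPKM, and 2 did in KM-H2. The most abundant of them in each Hodgkin line was PTPRC, the pan-leukocyte antigen, while MS4A1 (CD20) was listed at 0 in all 6 Hodgkin libraries. Reh carried 5 of 6 precursor B markers, led by IGLL1 at 493 FPKM on average, but VPREB1, which encodes a part of the surrogate light chain, was listed at 0 in both of its libraries. Namalwa also carried 5 of the 6, VPREB1 among them at 11.4 and 7.89 FPKM, with sums of 213 and 216 FPKM against 1320 and 1230 FPKM in Reh. The Hodgkin line markers TNFRSF8 (CD30) and FSCN1 were at 19.1 to 63.7 FPKM and 78.3 to 687 FPKM in the 6 Hodgkin libraries, and TNFRSF8 stayed at or below 0.505 FPKM in the other 6. FSCN1 was also at 14.4 to 30.4 FPKM in Reh and Reh_PMA, CCL22 was listed at 0 in KM-H2, and Reh_PMA had MIR155HG at 61.2 and 48.5 FPKM and TRAF1 at 18.5 and 14.8 FPKM. Of 5 T-cell markers, 2 reached 1 FPKM in KM-H2, with sums of 17.8 and 26.3 FPKM in its libraries, CD3D as the most abundant and CD7 listed at 0. Their sum was at or below 0.16 FPKM in each other library. Of 7 myeloid markers, MPO was the most abundant in Reh at 28.4 FPKM, with S100A9 listed at 0, and the list summed to 30.5 and 36.1 FPKM in Reh and 8.56 and 8.67 FPKM in Reh_PMA. In KM-H2, 2 myeloid markers reached 1 FPKM, ITGAM and CD14, with sums of 15.8 and 10.2 FPKM, and in L428 MPO was listed at 0 in library 0 and at 5.35 FPKM in library 1. The 4 stroma markers summed to at most 4.85 FPKM in any library. The part of these markers in the differences below was not tested.

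Library 1 of L1236, library 1 of L428 and both Reh_PMA libraries stood apart from the other 8. The FPKM of 27 ribosomal protein pseudogenes summed to 158 to 250 in these 4 libraries and to 3666 to 6386 in the other 8. The FPKM of 359 snoRNA genes drew another line, with sums of 282839, 315324 and 455092 in library 1 of KM-H2, L1236 and L428 and 69319 to 142659 in the other 9, and what this does to the members was not tested. The median absolute difference between library 1 and library 0 over the members was 0.08 in L1236 and 0.12 in L428 on the log2(FPKM + 1) scale, against 0.25 and 0.31 for all 14679 genes tested. In KM-H2, Namalwa, Reh and Reh_PMA the members differed more than all genes did, by 0.40, 0.58, 0.35 and 0.57 against 0.35, 0.24, 0.17 and 0.20. PAX5 differed by -0.74 in L1236, and IKZF3 by 0.83 and TCF3 by -0.51 in L428, while members near 0 FPKM in these lines can hardly move on this scale. In the PMA comparison the pseudogene divide ran between treated and untreated cells. Treatment and the side of this divide, called library type below, therefore cannot be told apart there from the libraries alone. Library type rests on the pseudogene sums only, and the labels name no such types. Absolute depth is unknown from FPKM, but the smallest steps in the values gave relative depths of 0.384 and 0.59 for KM-H2, 0.624 and 2.329 for L1236, 0.707 and 1.376 for L428, 1.014 and 0.871 for Namalwa, 0.973 for Reh library 1 and 1.558 and 1.67 for Reh_PMA, with Reh library 0 set to 1.

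**Figure D1:**
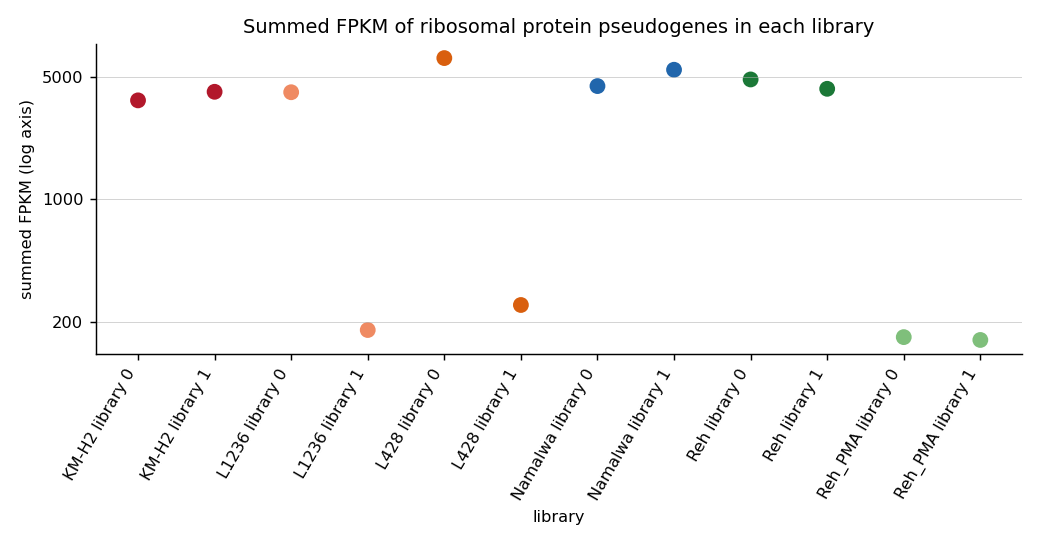
Summed FPKM of 27 ribosomal protein pseudogenes (log axis) in each of the 12 libraries, 1 point a library. Both Reh_PMA libraries and library 1 of L1236 and of L428 lie at 158 to 250, and the other 8 lie at 3666 to 6386.

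PAX5 and EBF1, the factors that specify and commit the lineage, are described first, and the level of each member is given in every library as the pair of library 0 and library 1. PAX5 (chromosome 9, 36833266 to 37034265, minus strand, hg19) was at 77.8 and 56.6 FPKM in Namalwa, 64.1 and 52.5 in Reh, 33.8 and 19.8 in L1236, 11.3 and 17.4 in Reh_PMA, 1.84 and 0.446 in KM-H2 and 0.537 and 0.62 in L428. It was high in both control lines, whose libraries overlapped, about a tier lower in L1236, and near the bottom of its range in KM-H2 and L428, which overlapped each other. EBF1 (chromosome 5, 158122928 to 158526924, minus strand) was at 82.9 and 66.2 FPKM in Reh, 24.4 and 15 in Reh_PMA, 15.3 and 13.1 in Namalwa, 3.01 and 2.1 in KM-H2, 1.49 and 1.78 in L428 and 0.033 and 0 in L1236. L1236 thus held the lowest EBF1 of the 6 conditions and the highest PAX5 of the 3 Hodgkin lines, and all 6 Hodgkin libraries lay below the 4 control libraries for both genes.

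Promoter windows of the 250 bases before the annotated start were read for 8 of the 10 members from RefSeq (GRCh38.p14): PAX5, EBF1, TCF3, FOXO1, POU2F2, SPIB, IKZF1 and BACH2. The set of windows used here had no entry for POU2AF1 and IKZF3. The windows of 4 members were picked after the motif search, as examples that hold at least 1 match to a motif bound by members or by factors of their families. The capitals mark the matches, and each sequence runs in the direction of transcription.
PAX5 (chr9:37034269-37034518, minus strand): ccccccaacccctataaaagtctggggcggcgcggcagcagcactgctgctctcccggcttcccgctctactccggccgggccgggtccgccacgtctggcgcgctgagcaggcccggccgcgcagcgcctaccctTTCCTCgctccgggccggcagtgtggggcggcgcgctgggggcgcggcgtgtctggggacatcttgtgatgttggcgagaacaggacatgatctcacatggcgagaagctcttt
EBF1 (chr5:159097957-159098206, minus strand): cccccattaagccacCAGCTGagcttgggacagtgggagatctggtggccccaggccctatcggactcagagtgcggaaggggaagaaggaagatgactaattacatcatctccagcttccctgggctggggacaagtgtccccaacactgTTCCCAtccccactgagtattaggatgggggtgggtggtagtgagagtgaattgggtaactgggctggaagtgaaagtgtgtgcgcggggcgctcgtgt
SPIB (chr19:50418688-50418937, plus strand): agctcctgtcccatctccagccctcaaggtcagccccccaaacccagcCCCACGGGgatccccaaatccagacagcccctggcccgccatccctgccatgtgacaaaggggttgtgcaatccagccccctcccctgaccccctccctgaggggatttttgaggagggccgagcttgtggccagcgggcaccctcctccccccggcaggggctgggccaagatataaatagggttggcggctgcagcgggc
IKZF1 (chr7:50304466-50304715, plus strand): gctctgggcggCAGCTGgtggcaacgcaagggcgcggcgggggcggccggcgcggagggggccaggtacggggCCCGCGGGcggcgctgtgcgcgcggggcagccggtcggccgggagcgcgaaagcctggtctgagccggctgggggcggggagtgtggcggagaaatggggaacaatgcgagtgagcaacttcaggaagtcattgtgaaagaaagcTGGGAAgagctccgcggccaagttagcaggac
The motifs were searched as letters on both strands in 34788 distinct windows of this length. The ETS core GAGGAA, the kind of site SPIB binds, was found in PAX5 and POU2F2 and in another window of IKZF1, and 23.6% of all windows hold it. The E-box CAGCTG, which TCF3 can bind, was found in EBF1 and IKZF1 and is held by 14.0% of windows. The EBF core CCCNNGGG was found in SPIB and IKZF1 and is held by 17.0%, and the Ikaros core TGGGAA in EBF1 and IKZF1 and by 20.8%. No member window held the octamer ATGCAAAT (1.62% of all windows), the E-box CAGGTG (17.5%), the AP-1 core TGANTCA (6.59%) or the forkhead motif GTAAACA (2.98%). A match is a description of the letters only.

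TCF3 and FOXO1, which act upstream of EBF1, were detected in all 12 libraries. TCF3 (chromosome 19, 1609290 to 1652614, minus strand) was at 209 and 190.0 FPKM in Namalwa, 142 and 108 in Reh, 77.9 and 67.7 in L1236, 64.5 and 72.0 in KM-H2, 51.7 and 44.8 in Reh_PMA and 39.3 and 27.3 in L428. Control libraries were above all others, and L1236 and KM-H2 overlapped. FOXO1 (chromosome 13, 41129804 to 41240778, minus strand) was at 34.1 and 21.2 FPKM in Reh, 20.9 and 11.6 in Namalwa, 7.04 and 11 in Reh_PMA, 4.01 and 4.31 in L1236, 3.47 and 3.31 in L428 and 3.28 and 2.17 in KM-H2. The 3 Hodgkin lines lay close together for FOXO1 and below every library of the other conditions.

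POU2F2 and its coactivator POU2AF1 did not follow each other from line to line. POU2F2 (chromosome 19, 42590262 to 42700737, minus strand) was at 14.6 and 6.42 FPKM in Namalwa, 2.43 and 3.15 in Reh_PMA, 1.76 and 1.6 in KM-H2, 0.356 and 0.188 in Reh, 0.096 and 0.147 in L428 and 0 and 0.141 in L1236. Only Namalwa was above 5 FPKM, and untreated Reh was as low as 0.188, next to L428 and L1236. POU2AF1 (chromosome 11, 111222980 to 111326355, minus strand) was at 70.5 and 36.1 FPKM in Namalwa, 20.3 and 19.4 in L1236, 20.4 and 11.7 in Reh, 3.55 and 11 in Reh_PMA, 0 and 0.026 in L428 and listed at 0 in both KM-H2 libraries. L1236 lay within the range of Reh for POU2AF1, while KM-H2 and L428 were at or near 0.

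SPIB, an ETS factor of B cells and plasmacytoid dendritic cells, had the reverse split among the Hodgkin lines. It (chromosome 19, 50922195 to 50934571, plus strand) was at 34.4 and 59.4 FPKM in Namalwa, 11 and 23.2 in Reh_PMA, 9.17 and 6.57 in Reh, 4.96 and 10.6 in KM-H2, 6.3 and 6.66 in L428 and 0.296 and 0.335 in L1236. KM-H2, L428 and Reh overlapped, and L1236 was far below all other libraries.

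IKZF1 and IKZF3, Ikaros family regulators of lymphoid development, stayed on in all 3 Hodgkin lines. IKZF1 (chromosome 7, 50343664 to 50472799, plus strand) was at 118 and 126 FPKM in L1236, 98.5 and 127 in Namalwa, 81.7 and 92.7 in Reh, 73.4 and 60.5 in L428, 46.9 and 26.3 in KM-H2 and 9.2 and 13 in Reh_PMA. L1236 overlapped Namalwa at the top, and the PMA-treated cells were lowest. IKZF3 (chromosome 17, 37913971 to 38020565, minus strand) was at 31.3 and 25.9 FPKM in Namalwa, 15.2 and 27.8 in L428, 12.9 and 10.6 in L1236, 11.8 and 6.48 in KM-H2, 0.046 and 0.023 in Reh and 0 and 0.007 in Reh_PMA. It was present in 4 lines and near 0 in Reh with or without PMA.

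BACH2 had the widest range of the members. It (chromosome 6, 90636247 to 91006562, minus strand) was at 102 and 61.5 FPKM in Namalwa, 32.1 and 14.7 in Reh, 2.65 and 3.41 in L428, 2.95 and 1.47 in Reh_PMA, 0 and 0.078 in KM-H2 and 0.018 and 0.01 in L1236. Between the highest and the lowest condition mean, the range on the log2(FPKM + 1) scale was 6.35 for BACH2, 6.22 for EBF1, 5.76 for POU2AF1, 5.43 for PAX5, 5.19 for SPIB, 4.88 for IKZF3, 3.43 for POU2F2, 3.34 for IKZF1, 2.95 for FOXO1 and 2.55 for TCF3. Namalwa had the highest mean for 7 members, Reh for EBF1 and FOXO1, and L1236 for IKZF1. When the 6 conditions were ordered by mean within each member, 14 of the 50 pairs of neighbours overlapped in their libraries. No such count was made over all genes tested, so it describes the order alone and no trait of the members.

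**Figure D2:**
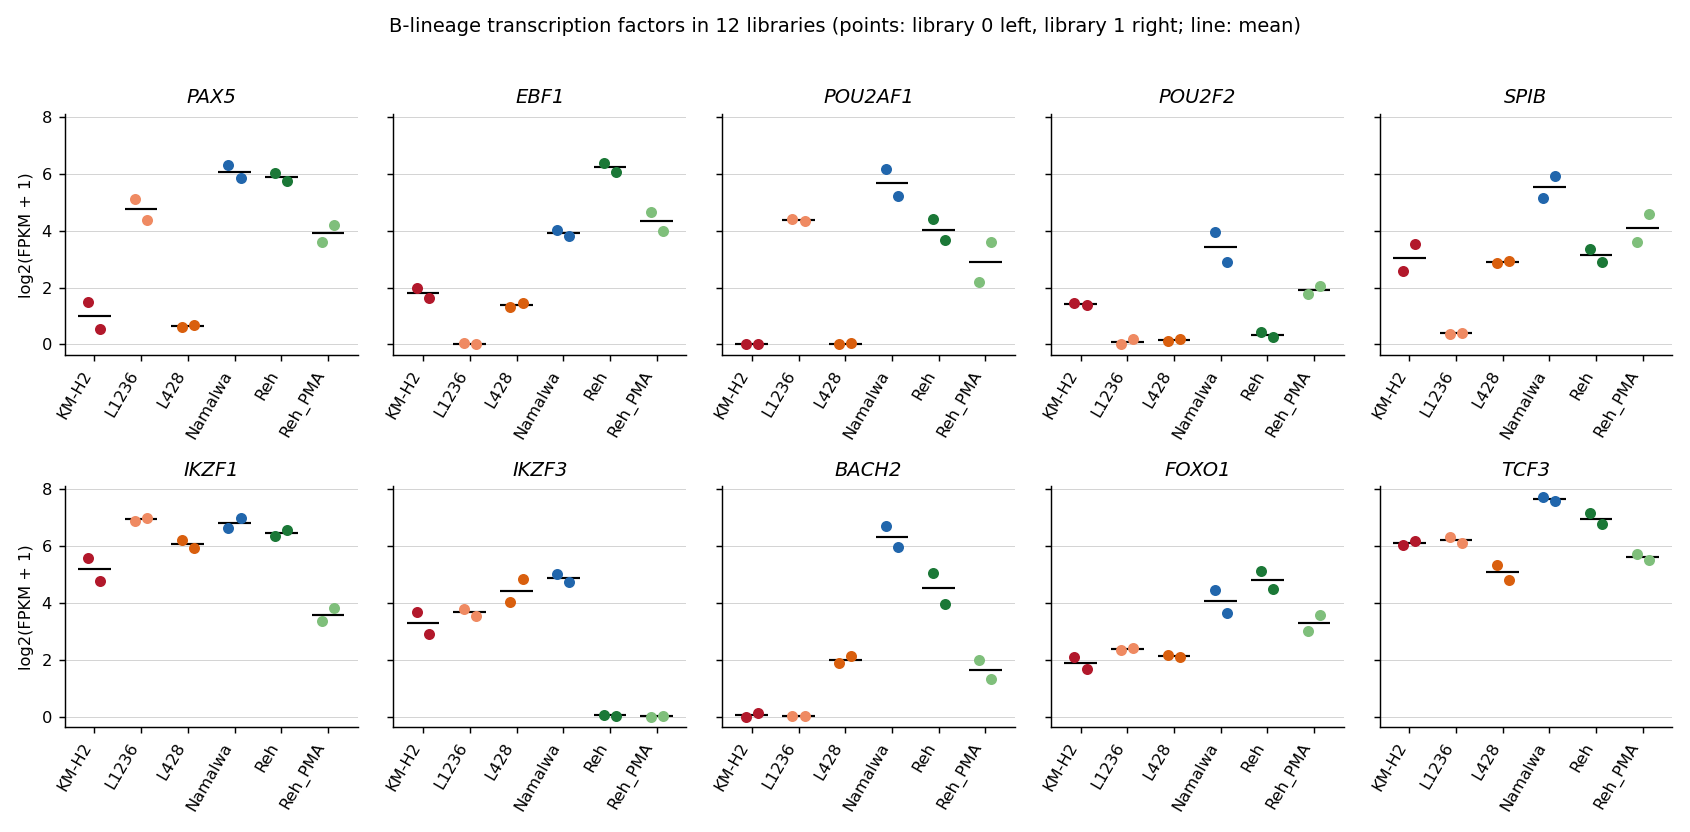
Level of each member as log2(FPKM + 1) in the 6 conditions, with 1 point for each library (library 0 on the left, library 1 on the right) and a line at the mean of the pair. PAX5 and POU2AF1 are kept in part or in full in L1236 alone among the Hodgkin lines, SPIB is lowest in L1236, IKZF3 is near 0 in Reh, and BACH2, FOXO1 and EBF1 are low in all 3 Hodgkin lines.

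KM-H2 was compared with the controls to ask which B-lineage factors are low in this Hodgkin line. PAX5, EBF1, BACH2, POU2AF1, FOXO1, IKZF1 and TCF3 were each lower in both KM-H2 libraries than in all 4 control libraries, as were 22.0% of all genes tested. Of the 10 members, 8 were called lower and 0 higher, against 13.5% and 16.8% of the 14679 genes tested. A gene was called where limma's adjusted p, corrected over all genes tested, was under 0.05 and the difference in log2(FPKM + 1) was at least 1, a scale that understates changes of genes at low levels. The reference in this and the next 2 comparisons is the mean of the Namalwa and Reh means. BACH2 differed by -5.36 (SE 0.34, adjusted p = 2.1e-06), PAX5 by -4.96 (SE 0.32, adjusted p = 2.7e-06) and EBF1 by -3.26 (SE 0.23, adjusted p = 3.9e-06). FOXO1 differed by -2.55 (adjusted p = 9.8e-05), IKZF1 by -1.46 (adjusted p = 0.0012) and TCF3 by -1.19 (adjusted p = 0.0011). POU2AF1 was listed at 0 in KM-H2, with an adjusted p of 1.2e-05. SPIB was called at -1.28 (adjusted p = 0.017), but KM-H2 overlapped Reh for this gene and its call was lost without KM-H2 library 0 (-0.80, adjusted p = 0.16) and without Reh library 0 (-1.17, adjusted p = 0.052), with a range of 0.0099 to 0.16 over the alternatives. POU2F2 (-0.46, adjusted p = 0.18) did not pass. IKZF3 was 0.82 above the mean of the controls (adjusted p = 0.038), under the fold limit, and was called higher without KM-H2 library 1 (1.21, adjusted p = 0.016) and with a pseudocount of 0.1 (2.17, adjusted p = 6.7e-04, range 6.7e-04 to 0.3). Of all 14679 genes, 1987 were called lower and 2469 higher. IKZF3 was the only member above the mean of the controls. KM-H2 lay above Reh and below Namalwa for IKZF3.

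L1236 kept PAX5 and POU2AF1 in part or in full but had almost no EBF1, SPIB or BACH2. Of the 10 members, 7 were called lower and 1 higher, against 13.3% and 15.7% of the genes tested. BACH2 differed by -5.40 (SE 0.34, adjusted p = 1.9e-06), EBF1 by -5.05 (SE 0.23, adjusted p = 2.8e-07) and SPIB by -3.94 (SE 0.36, adjusted p = 2.4e-05). FOXO1 differed by -2.06 (adjusted p = 3.9e-04), and POU2F2 by -1.79 (adjusted p = 4.7e-04), although Reh was also under 0.4 FPKM for POU2F2. PAX5 was lower by a smaller step of -1.23 (adjusted p = 0.013), which ended without L1236 library 1 (-0.86, adjusted p = 0.13) and with a pseudocount of 0.1 (-1.26, adjusted p = 0.053, range 0.0099 to 0.13). TCF3 differed by -1.10 (adjusted p = 0.0017) and came under the fold limit after quantile normalisation (adjusted p = 0.0087) and with library type as a term (-0.93, adjusted p = 0.0072, range 0.001 to 0.026). POU2AF1 (-0.48, adjusted p = 0.36) and IKZF1 (0.30, adjusted p = 0.37) did not pass. The member called higher was IKZF3, at 1.2 (adjusted p = 0.0072), and this call was lost without L1236 library 0 (1.07, adjusted p = 0.058, range 2.4e-04 to 0.058). L1236 lay above Reh and below Namalwa for IKZF3, so the direction rests on the near absence of the transcript in Reh.

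In L428, PAX5 and POU2AF1 were near 0, EBF1, BACH2 and FOXO1 were low, and TCF3 was lower here than in the other Hodgkin lines. Of the 10 members, 8 were called lower and 1 higher, against 13.8% and 16.2% of the genes tested. PAX5 differed by -5.32 (SE 0.32, adjusted p = 1.9e-06), POU2AF1 by -4.85 (SE 0.40, adjusted p = 1.3e-05) and EBF1 by -3.68 (SE 0.23, adjusted p = 1.9e-06). BACH2 differed by -3.41 (adjusted p = 3.9e-05), FOXO1 by -2.30 (adjusted p = 2.0e-04) and TCF3 by -2.23 (adjusted p = 2.2e-05). POU2F2 differed by -1.72 (adjusted p = 6.1e-04), again with Reh nearly as low. SPIB differed by -1.43 (adjusted p = 0.010), with L428 overlapping Reh, and this call was lost without L428 library 0 or library 1 (adjusted p = 0.053 in both, range 0.006 to 0.053). IKZF3 was called higher at 1.97 (adjusted p = 4.2e-04), with L428 again between Reh and Namalwa on average. IKZF1 (-0.56, adjusted p = 0.099) was the member that did not pass.

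The 3 comparisons share their controls, so the lines were also compared with each other, where the controls cancel. L1236 differed from both other Hodgkin lines in the same 4 members: PAX5 and POU2AF1 were higher and EBF1 and SPIB lower in L1236. Both comparisons use the L1236 libraries, so they are not independent, and no share of all genes called alike in both is given here. Between KM-H2 and L1236, 6 members were called, against 26.6% of all genes tested in either direction. KM-H2 had less PAX5 (-3.73, adjusted p = 5.5e-05) and less IKZF1 (-1.76, adjusted p = 0.0013), more EBF1 (1.79, adjusted p = 5.8e-04), POU2F2 (1.33, adjusted p = 0.0077) and SPIB (2.66, adjusted p = 9.8e-04), and POU2AF1 listed at 0 against about 20 FPKM (adjusted p = 8.1e-05). Between L428 and L1236, 6 members were called, against 21.9% of genes tested. L428 had less PAX5 (-4.09, adjusted p = 4.3e-05), POU2AF1 (-4.36, adjusted p = 1.2e-04) and TCF3 (-1.13, adjusted p = 0.0057), and more SPIB (2.51, adjusted p = 0.0018), BACH2 (1.98, adjusted p = 0.0043) and EBF1 (1.37, adjusted p = 0.0037). Between KM-H2 and L428, 4 members were called, against 26.6% of genes tested. KM-H2 had more POU2F2 (1.26, adjusted p = 0.010) and TCF3 (1.03, adjusted p = 0.0071) and less BACH2 (-1.95, adjusted p = 0.0038) and IKZF3 (-1.14, adjusted p = 0.022). IKZF1 was at -0.90 there (adjusted p = 0.037), under the fold limit. FOXO1 was called in none of these 3 comparisons by limma, with unadjusted p-values of 0.18, 0.47 and 0.51 for KM-H2 against L1236, KM-H2 against L428 and L428 against L1236.

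Some of these calls between lines depended on 1 library. In KM-H2 against L428, TCF3 lost its call without KM-H2 library 1 (0.96, adjusted p = 0.039), without L428 library 1 (0.78, adjusted p = 0.053) and with library type as a term (0.86, adjusted p = 0.021), with a range of 0.0042 to 0.053. IKZF3 lost its call in the same 3 fits (-0.75, adjusted p = 0.13, then -0.73, adjusted p = 0.15, and -1.0, adjusted p = 0.064), with a range of 0.0085 to 0.15, which left 1 member higher and 1 lower in each. IKZF1 was called lower there without KM-H2 library 0 (-1.31, adjusted p = 0.0094, range 0.0094 to 0.22). In L428 against L1236, TCF3 came under the fold limit without L428 library 1 (-0.87, adjusted p = 0.04, range 0.0034 to 0.049), and IKZF3 was called higher without L428 library 0 (1.18, adjusted p = 0.033, range 0.033 to 0.52). The calls of PAX5, EBF1, POU2AF1, SPIB, POU2F2 and BACH2 between the lines held in all these fits, as did that of IKZF1 between KM-H2 and L1236.

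**Figure D3:**
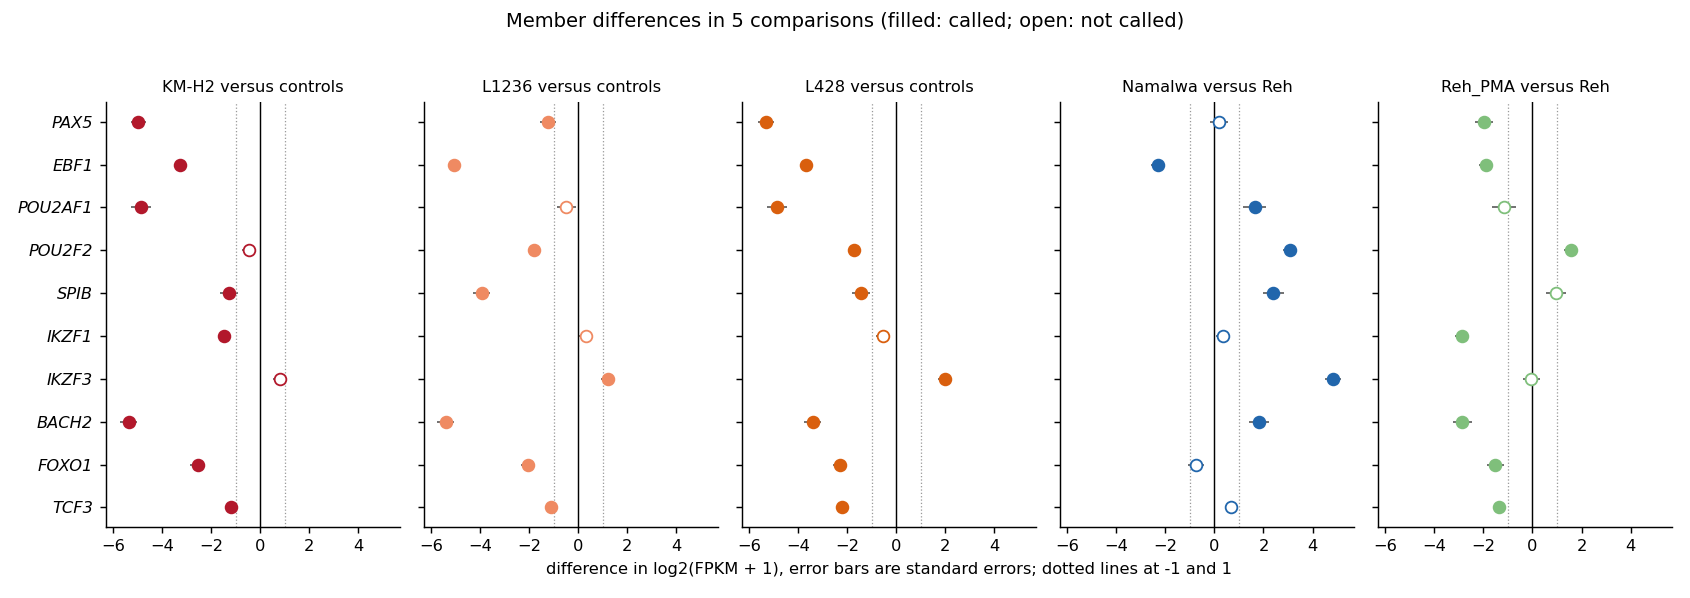
Difference in log2(FPKM + 1) of each member (rows) in 5 comparisons (panels), with standard errors as bars, filled points for called members and open points for the others. POU2AF1 in KM-H2 is drawn at its fitted value although the gene is listed at 0 there, and EBF1, BACH2 and FOXO1 lie below -2 in all 3 Hodgkin lines.

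For the class as a whole, the line means of the 3 Hodgkin lines were set against those of the 2 control lines, since lines and not libraries are the replicates of a class. PAX5, EBF1, BACH2, FOXO1 and TCF3 were lower in all 6 Hodgkin libraries than in all 4 control libraries, 5 of the 10 members against 8.06% of the genes tested. By limma over lines, 0 members were called lower and 0 higher, against 0.225% and 0.32% of the genes tested. The same 5 members had an unadjusted p under 0.05, as had 13.5% of all genes. The differences were -4.73 for BACH2 (SE 0.88, adjusted p = 0.12), -2.30 for FOXO1 (SE 0.42, adjusted p = 0.12), -4.00 for EBF1 (SE 0.89, adjusted p = 0.18), -1.51 for TCF3 (SE 0.45, adjusted p = 0.27) and -3.84 for PAX5 (SE 1.28, adjusted p = 0.31). POU2AF1 (-3.40, SE 1.5), SPIB (-2.21, SE 1.10), POU2F2 (-1.33, SE 1.01), IKZF1 (-0.57, SE 0.54) and IKZF3 (1.33, SE 1.40) varied more between lines of a class for the size of their difference. The median difference was -2.26 over the members and 0.02 over all genes tested. With libraries in place of lines as replicates, 8 members were called lower and 1 higher against both controls, 7 lower and 1 higher against Reh alone, and 9 lower and 0 higher against Namalwa alone, where 3614, 4090 and 3991 of the 14679 genes tested were called in either direction. Over lines, 0 members were called in either direction without any 1 line. IKZF3 turned with the control: over libraries it was higher against Reh (3.75, adjusted p = 4.2e-06) and lower against Namalwa (-1.09, adjusted p = 0.0084), and over lines it was at -1.09 without Reh (adjusted p = 0.65), with adjusted p from 4.2e-06 to 0.81 over the alternatives. POU2F2 was at 0.22 against Reh alone, over libraries (adjusted p = 0.5) and over lines (adjusted p = 0.92), with a range of 1.8e-05 to 0.92. Over all genes, the line-level fit called 80, and 28 to 35 without any 1 library of a Hodgkin line.

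Namalwa was set against Reh to describe how far the controls differ from each other in the same factors. Namalwa, the mature B-cell tumour, had more IKZF3, POU2F2, SPIB, BACH2 and POU2AF1, and Reh had more EBF1. Of the 10 members, 5 were called higher in Namalwa and 1 lower, against 7.5% and 11.5% of the genes tested. IKZF3 differed by 4.83 (SE 0.33, adjusted p = 6.2e-06), POU2F2 by 3.08 (SE 0.30, adjusted p = 6.3e-05) and SPIB by 2.40 (SE 0.42, adjusted p = 0.0025). EBF1 differed by -2.31 (SE 0.26, adjusted p = 1.6e-04). PAX5 (0.19, adjusted p = 0.83), IKZF1 (0.36, adjusted p = 0.46), TCF3 (0.68, adjusted p = 0.062) and FOXO1 (-0.75, adjusted p = 0.15) did not pass. BACH2 (1.82, adjusted p = 0.0075) and POU2AF1 (1.64, adjusted p = 0.030) were called as well, and 3 members were called higher without Namalwa library 0 or without Reh library 1. BACH2 then stood at 1.46 (adjusted p = 0.063) and 1.28 (adjusted p = 0.062), with a range of 0.0042 to 0.063. POU2AF1 stood at 1.17 and 1.26 (adjusted p = 0.20 in both), with a range of 0.029 to 0.2, and its adjusted p was 0.053 with no filter on low values.

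PMA treatment of Reh was set against untreated Reh to ask how the members respond to protein kinase C activation. IKZF1 and BACH2 fell most, PAX5, EBF1, FOXO1 and TCF3 fell by smaller steps, and POU2F2 rose from near 0. Of the 10 members, 6 were called lower and 1 higher, against 11.8% and 10.5% of the genes tested. The treated cells carried transcripts of a PMA response: EGR1, an immediate early gene, was at 62.1 and 76.2 FPKM in Reh_PMA and 0.138 and 0.035 in Reh, and the 7 PMA response genes summed to 535 and 238 FPKM against 10.3 and 7.15. Of these genes CCL4 was the most abundant in Reh_PMA on average, at 351 and 90.3 FPKM. CBFA2T3 went the other way, at 0.825 and 0.475 FPKM in Reh_PMA against 6.68 and 4.43 in Reh. Mean IKZF1 in Reh was 7.85 times that in Reh_PMA (log2 difference -2.88, SE 0.29, adjusted p = 1.7e-04), and mean BACH2 was 10.6 times (-2.86, SE 0.39, adjusted p = 8.1e-04). The lower Reh library was 4.96 times the higher Reh_PMA library for BACH2, and its difference ran from -3.4 to -2.32 over the alternatives. Mean PAX5 in Reh was 4.06 times that in Reh_PMA (-1.97, SE 0.37, adjusted p = 0.0045), EBF1 3.78 times (-1.90, SE 0.26, adjusted p = 8.6e-04), FOXO1 3.07 times (-1.51, adjusted p = 0.0096) and TCF3 2.6 times (-1.35, adjusted p = 0.0028). Mean POU2F2 in Reh_PMA was 10.3 times that in Reh (1.57, SE 0.30, adjusted p = 0.0048). No library of Reh_PMA overlapped one of Reh in any of these 7 members, but with 2 libraries a side this says little, since 40.1% of all genes tested lay wholly below and 31.8% wholly above. SPIB (0.96, adjusted p = 0.11) did not pass. IKZF3 was near 0 in both conditions (-0.04, adjusted p = 0.99). POU2AF1 (-1.16, adjusted p = 0.089) did not pass and was called lower without Reh_PMA library 1 (-1.86, adjusted p = 0.021, range 0.021 to 0.54).

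Both treated libraries had the low pseudogene sums of 164 and 158 FPKM, against 4824 and 4267 in untreated Reh. Library type is the side of this divide and is not given in the labels. A fit with library type as a term, in which L1236 and L428 carry 1 library of each type, called 3 members lower and 0 higher, against 9.39% and 8.62% of all genes tested: IKZF1 (-2.79, adjusted p = 0.0042), BACH2 (-2.99, adjusted p = 0.0093) and EBF1 (-1.95, adjusted p = 0.011). In that fit PAX5 stood at -1.64 (adjusted p = 0.061, range 0.0038 to 0.061), FOXO1 at -1.52 (adjusted p = 0.064, range 0.0091 to 0.085), TCF3 at -0.99 (adjusted p = 0.046, range 0.0018 to 0.046) and POU2F2 at 1.44 (adjusted p = 0.051, range 0.0017 to 0.051). All 7 members kept their direction, with larger standard errors. The term is set by L1236 and L428 alone and is taken as equal in every line. BACH2 was at 0.018 and 0.01 FPKM in L1236 and 2.65 and 3.41 in L428. EBF1 was at 0.033 and 0 FPKM in L1236 and 1.49 and 1.78 in L428. For both genes the fit therefore says little about library type at the levels of Reh. FOXO1 also lost its call without Reh library 0 (-1.18, adjusted p = 0.085) and without Reh_PMA library 0 (-1.22, adjusted p = 0.081). Over all genes, 1731 were called lower and 1534 higher, 3265 in all, and 2092 were called without Reh library 0 and 1968 without Reh_PMA library 0.

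**Figure D4:**
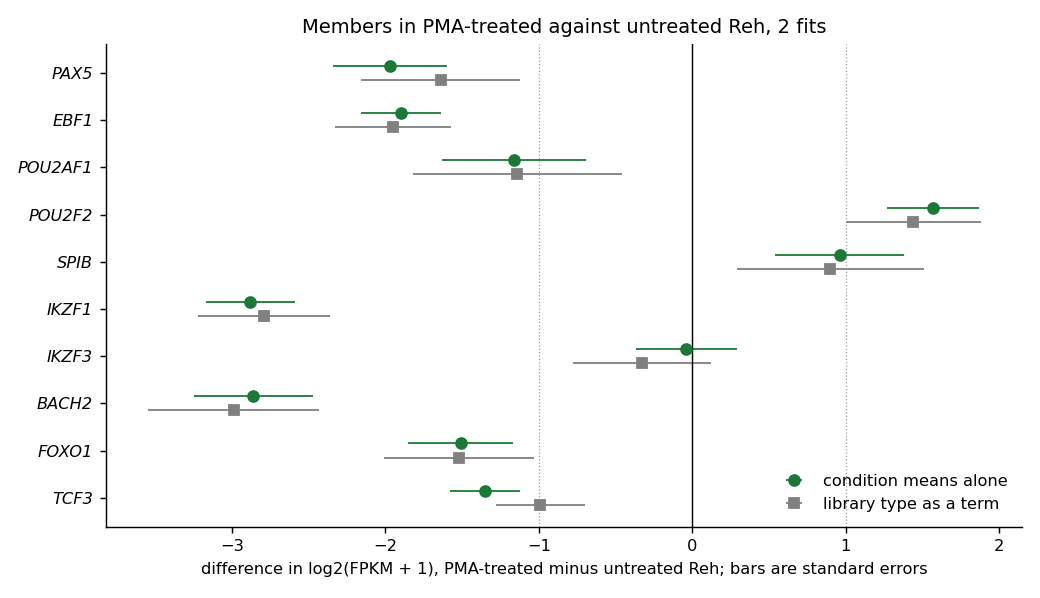
Difference in log2(FPKM + 1) between PMA-treated and untreated Reh for each member, with standard errors as bars, from the fit on condition means (green circles) and from the fit with library type as a term (grey squares). IKZF1, BACH2 and EBF1 lie below -1 and pass in both fits, and TCF3 moves from -1.35 to -0.99. BACH2 and EBF1 are low in L1236 and L428, the lines that set the term.

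Most of the genes that PAX5, EBF1 and the octamer factors are known to activate were called lower in each of the 3 Hodgkin lines. Of 18 such target genes, 17 were called lower and 1 higher in KM-H2, and 16 lower and 0 higher in both L1236 and L428, by limma against the controls. Of all genes tested, 13.5%, 13.3% and 13.8% were called lower and 16.8%, 15.7% and 16.2% higher. In all their libraries, 13, 14 and 14 of the 18 lay below all control libraries, as did 22.0%, 23.3% and 22.7% of all genes tested. KM-H2 overlapped Reh for CD37, FCRLA and BLK, and VPREB1 was listed at 0 and MS4A1 and BANK1 were under 0.3 FPKM in Reh, so the calls of these last 3 rest on Namalwa alone. The median difference was -3.01 in KM-H2, -3.97 in L1236 and -4.69 in L428, against 0.00, -0.01 and -0.01 over all genes tested. CD79B, a signalling chain of the B-cell receptor, was at 394 and 414 FPKM in Reh and 591 and 889 in Namalwa and at most 0.592 in any Hodgkin library. RAG1 and RAG2, the recombinase of antigen receptor genes, were at 435 and 384 FPKM and at 161 and 152 FPKM in the Reh libraries and under 0.5 FPKM in all 6 Hodgkin libraries. L1236, in which PAX5 was kept in part and POU2AF1 was not called lower, had CD79A and CD79B at or below 0.79 FPKM. The exception in KM-H2 was CR2, the complement receptor CD21, at 231 and 97.7 FPKM against 1.68 and 2.12 in Namalwa, and it was listed at 0 in Reh. In the class comparison CD79A, CD79B, RAG2 and VPREB3 were called lower, and 0 of the 18 were called higher. Of all genes tested, 0.225% were called lower and 0.32% higher there.

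With PMA, 9 target genes were called lower and 1 higher, against 11.8% and 10.5% of all genes tested, with a median of -1.5 against -0.03. With library type as a term 8 were lower and 1 higher, against 9.39% and 8.62%, and VPREB3 no longer passed (-2.67, adjusted p = 0.056). RAG1, RAG2 and CD79B were at or below 0.592 FPKM in L1236 and L428, the lines that set this term. RAG1 differed by -5.53 (adjusted p = 1.8e-05), RAG2 differed by -4.67 (adjusted p = 8.5e-06), the adaptor BLNK by -4.57 (adjusted p = 3.9e-06) and CD79B by -2.78 (adjusted p = 5.8e-04). CD22, an inhibitory receptor, was the 1 called higher (1.26, adjusted p = 0.0077). CD79A was at 947 and 1102 FPKM in Reh_PMA and 336 and 429 in Reh, but did not pass (1.43, adjusted p = 0.060). In Namalwa against Reh, 9 of the 18 were higher and 6 lower, against 7.5% and 11.5% of all genes tested, among the latter RAG1, RAG2, IGLL1 and VPREB3, with a median of 1.10 against 0.00.

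Among 23 partner and related regulators, 13 were called lower and 1 higher in KM-H2, 10 lower and 3 higher in L1236 and 12 lower and 3 higher in L428, against 13.5%, 13.3% and 13.8% of all genes tested called lower and 16.8%, 15.7% and 16.2% called higher. The medians were -1.23, -0.68 and -1.12, against 0.00, -0.01 and -0.01 over all genes tested. Some of the lower calls rest mainly on 1 control. KM-H2 overlapped Reh for AFF3, and for MEF2B L1236 overlapped Reh and L428 lay above it, which leaves Namalwa. L1236 and L428 overlapped Namalwa for MEF2C, as did KM-H2 for RUNX1, which leaves Reh. SPI1 (PU.1), the ETS factor closest to SPIB, was listed at 0 in all 6 Hodgkin libraries and was at 22.4 to 33.8 FPKM in the controls. In the class comparison it was the 1 partner called lower, with 0 higher, against 0.225% and 0.32% of all genes tested. IRF4, a partner of SPI1 and SPIB on DNA, was the partner called higher in all 3 Hodgkin lines, by 3.82 in KM-H2, 4.76 in L1236 and 4.31 in L428. L1236 and L428 also had more FOXO3 and GFI1. With PMA, 7 partners were lower and 1 higher, against 11.8% and 10.5% of all genes tested: BCL11A, FLI1, FOXO3, GFI1, IKZF2, MYB and POU2F1 were lower, and BACH1, the paralogue of BACH2, was higher (1.33, adjusted p = 0.0012). The median was -0.60, against -0.03 over all genes tested. With library type as a term BCL11A (-1.12, adjusted p = 0.10) and FOXO3 (-1.19, adjusted p = 0.079) no longer passed. In Namalwa against Reh 3 were lower (MEF2C, MYB and RUNX1) and 5 higher (AFF3, ETS1, IRF4, IRF8 and MEF2B), against 11.5% and 7.5% of all genes tested, with a median of 0.09 against 0.00.

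Of 12 regulators known to oppose the B-lineage programme, 11 were tested. MSC (ABF-1), a repressor that pairs with E proteins such as TCF3, was at 16.9 to 101 FPKM in the Hodgkin libraries and listed at 0 in the other 6. ID2, which blocks E proteins from DNA, was higher in KM-H2 (2.82), L1236 (2.87) and L428 (2.13) and rose with PMA by 4.79 (adjusted p = 5.4e-04), to 246 and 333 FPKM from 8.48 and 10.3. GATA3, a T-lineage factor, was called higher in all 3 Hodgkin lines, TCF7 in KM-H2 and L1236, and PRDM1, the plasma cell regulator that BACH2 represses, in KM-H2 and L428. ID3, by contrast, was at 154 to 388 FPKM in the controls and was called lower in all 3 Hodgkin lines and with PMA. XBP1 was called lower in KM-H2, ID1 and NOTCH1 in L1236, and NOTCH1 in L428. L1236 lay within the range of Reh for ID1, so that call rests on Namalwa alone, and L428 overlapped Namalwa for NOTCH1. The median differences were 0.15, 0.48 and 0.38 in KM-H2, L1236 and L428, and 0.00 with PMA, against 0.00, -0.01, -0.01 and -0.03 over all genes tested. Over all genes tested, 13.3% to 13.8% were called lower and 15.7% to 16.8% higher in the Hodgkin lines, and 11.8% lower and 10.5% higher with PMA. In Namalwa against Reh, ID1 and CEBPA were higher and 0 lower, against 7.5% and 11.5% of all genes tested, with a median of 0.71 against 0.00. In the class comparison limma called 0 in either direction, against 0.225% of all genes tested lower and 0.32% higher. There 4 had an unadjusted p under 0.05, as had 13.5% of all genes tested.

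Of 7 genes known to be repressed by PAX5, 5 were tested, and they did not move together. CSF1R, the receptor of macrophage colony-stimulating factor, was called higher in KM-H2 (1.11, adjusted p = 8.1e-04) and with PMA (3.33, adjusted p = 1.0e-05), where it was at 11.8 and 11.2 FPKM against 0.285 and 0.202 in Reh. CCL3 was at 634 and 374 FPKM with PMA and listed at 0 in Reh, and it was called higher in L1236 and lower in KM-H2. KM-H2, at 0 and 1.07 FPKM, was not below Reh for CCL3, so its call rests on Namalwa alone. L1236, at 18.0 and 24.6 FPKM, overlapped Namalwa, at 7.5 and 21.2 FPKM, so its call rests on Reh alone. FLT3 was highest in Reh, at 54.6 and 43.0 FPKM, and was called lower in all 3 Hodgkin lines and with PMA (-2.61, adjusted p = 2.3e-05). It was listed at 0 in both Namalwa libraries, so the calls in the Hodgkin lines rest on Reh alone. SDC1 was called lower with PMA as well (-1.71, adjusted p = 0.0044) but did not pass with library type as a term (-1.12, adjusted p = 0.069). NOTCH1 was called lower in L1236 and L428, although L428 overlapped Namalwa. Namalwa had more CCL3 and less FLT3 and SDC1 than Reh. The shares of all genes called in these comparisons are those given for the opposing regulators. The median differences were -0.92, -0.63 and -0.97 in the 3 Hodgkin lines, 0.32 with PMA and -0.78 in Namalwa, against 0.00, -0.01, -0.01, -0.03 and 0.00 over all genes tested. In the class comparison limma called 0 in either direction. There 0 had an unadjusted p under 0.05, against 13.5% of all genes tested.

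**Figure D5:**
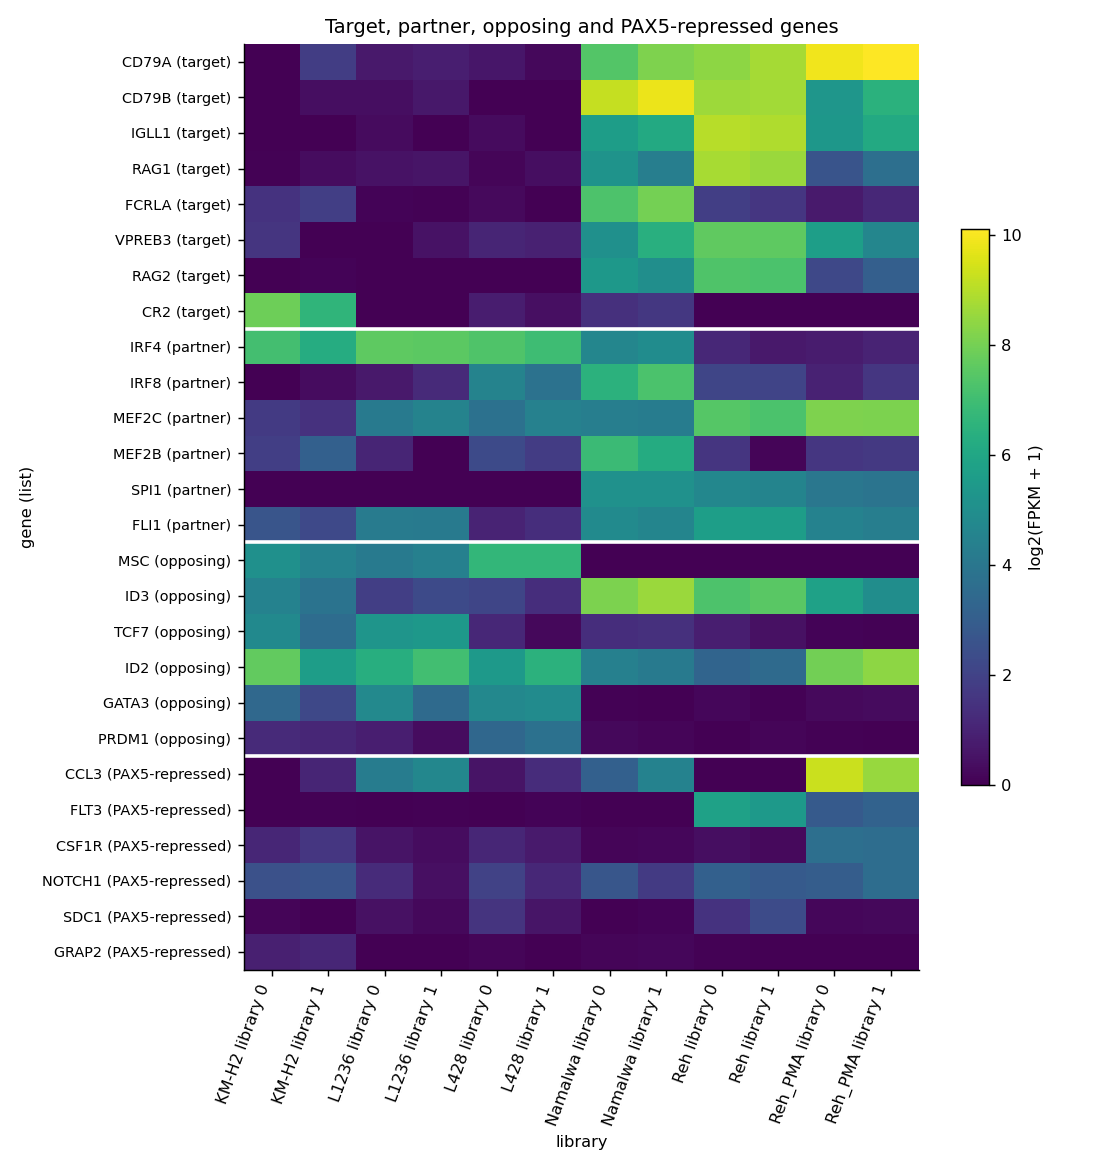
Levels as log2(FPKM + 1), by colour, of the 8 target genes with the widest range and of the 6 such genes in each of the partner, opposing and PAX5-repressed lists (rows) in the 12 libraries (columns). Most target genes and SPI1 are dark in the 6 Hodgkin libraries, CR2 is bright in KM-H2, MSC is bright in the Hodgkin libraries and dark in the other 6, and RAG1 and RAG2 dim with PMA.

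Likeness over the 6 conditions was measured as the root mean square distance between log2(FPKM + 1) condition means, each centred on its own mean, among all genes tested other than members. The genes nearest to PAX5 were P2RX5 (0.66), LINC00665 (0.69) and PTPRC (0.71), and the same 3 were nearest to POU2AF1, at 0.52, 0.71 and 0.83. PAX5 and POU2AF1 were also each other's nearest member, at 0.50. EBF1 was nearest to ZNF608 (0.51), ARPP21 (0.58) and GRAP (0.59), and BACH2 to CCDC69 (0.52), SUSD3 (0.68) and PLAC8 (0.69). FOXO1 and TCF3 had closer neighbours: PDE3B (0.12), GRAMD4 (0.22) and SSH2 (0.23) for FOXO1, and SAMD1 (0.17), RBFA (0.18) and GTF2IRD2 (0.19) for TCF3. The distance is not scaled to a gene's range, and FOXO1 and TCF3 had the smallest ranges of the members, at 2.95 and 2.55. POU2F2 was nearest to ADAM19 (0.27), DNMBP (0.36) and RHBDF2 (0.40), and SPIB to NLRP2 (0.44), TBC1D1 (0.60) and IFI16 (0.61). IKZF1 was nearest to TMEM97 (0.33), LRRC45 (0.37) and PMS2 (0.43). IKZF3 was nearest to GPT2 (0.23), STAMBPL1 (0.58) and SNHG11 (0.58), which were all near 0 in Reh with and without PMA.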

How the data were processed

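Expression was taken from 1 table of FPKM values that the authors deposited for 12 libraries. Per the submitters' processing notes, reads were aligned with TopHat2 2.0.11 to hg19 and FPKM were computed with Cuffnorm 2.2.1; the annotation used is not given in the sources used here. Libraries were total RNA, depleted of ribosomal RNA and stranded. Columns name a line and a suffix, 0 or 1, so libraries were matched to conditions only.

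From these values log2(FPKM + 1) was fitted with limma 3.58.1 in R 4.3.3 (trended empirical Bayes, Benjamini-Hochberg over all genes tested) for 14679 genes with at least 1 FPKM in 2 or more libraries; all 10 members passed. Line means were used for the class comparison. Alternatives were another pseudocount, no filter, other scalings, no trend, libraries or lines left out, and, chosen after seeing the data, library type as a term, single suffixes and a replicate block. Named genes were all members, and up to 6 genes of each list with the widest range of condition means, or those that account for a count of 5 or fewer. CD22, BLNK, FOXO3, GFI1, BACH1 and other list genes outside this rule were named after their values were seen. Members and lists were chosen with earlier results of these data known. The results of 1 gene of the lists are not reported here.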

Additional observations from a re-analysis of the deposited data

Results flagged for a closer look

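By the limma test of the difference between Hodgkin lines, 6 members differed between KM-H2 and L1236, 6 between L428 and L1236 and 4 between KM-H2 and L428, against 26.6%, 21.9% and 26.6% of all genes tested. These comparisons share lines. KM-H2 minus L1236 was -3.73 for PAX5 (adjusted p = 5.5e-05), -4.38 for POU2AF1 (adjusted p = 8.1e-05) as fitted with KM-H2 listed at 0, -1.76 for IKZF1 (adjusted p = 0.0013), 1.79 for EBF1 (adjusted p = 5.8e-04), 1.33 for POU2F2 (adjusted p = 0.0077) and 2.66 for SPIB (adjusted p = 9.8e-04). L428 minus L1236 was -4.09 for PAX5 (adjusted p = 4.3e-05), -4.36 for POU2AF1 (adjusted p = 1.2e-04), -1.13 for TCF3 (adjusted p = 0.0057), 1.37 for EBF1 (adjusted p = 0.0037), 2.51 for SPIB (adjusted p = 0.0018) and 1.98 for BACH2 (adjusted p = 0.0043). KM-H2 minus L428 was 1.26 for POU2F2 (adjusted p = 0.01), 1.03 for TCF3 (adjusted p = 0.0071), -1.95 for BACH2 (adjusted p = 0.0038) and -1.14 for IKZF3 (adjusted p = 0.022). Adjusted p-values over these 16 differences ran from 4.3e-05 to 0.022. In KM-H2 minus L428, TCF3 and IKZF3 were not called without KM-H2 library 1, without L428 library 1 or with library type as a term, and in L428 minus L1236 TCF3 was not called without L428 library 1. L1236 held PAX5 and POU2AF1 well above the other Hodgkin lines and EBF1 and SPIB below them, in both of its libraries. Its library 1 had the low pseudogene sum and its library 0 did not, and PAX5 was at 33.8 and 19.8 FPKM in library 0 and library 1.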

How the results depend on the processing

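Of 324 recomputed counts of genes or members called, 287 stayed within 1.5 times the count in the report, and of 1080 recomputed member differences 1011 kept their direction and side of the threshold, 27 no longer passed, 30 newly passed and 12 reached 0 or changed sign. In the class comparison these were IKZF3 (-1.09) against Namalwa alone and POU2F2 (0.22) against Reh alone, each over libraries and over lines, and in Namalwa against Reh PAX5 (-0.03) without Namalwa library 0. Over lines without any 1 line IKZF3 ran from -1.09 to 3.75 and POU2F2 from -2.87 to 0.22, and PAX5 ran from -0.03 to 0.42 without any 1 library. Where not stated, the cause was not tested.

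In the class comparison, 80 genes were called, against 11 with no filter on low values, with libraries in place of lines as replicates 3614 against both controls, 4090 against Reh alone and 3991 against Namalwa alone, 28 to 91 without any 1 library, over lines 183 without Namalwa and 0 without any other line, and, chosen after seeing the data, 1 with suffix 0 alone, 70 with suffix 1 alone and 20 without the libraries of low pseudogene sums. Members called lower there were 0, against 8, 7 and 9 over libraries with both controls, Reh alone and Namalwa alone, and members called higher were 0, against 1, 1 and 0. Without any 1 line both stayed at 0.

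Without any 1 library, members called higher ran from 0 to 1 in KM-H2 and in L1236 and from 3 to 5 in Namalwa against Reh, and genes called with PMA from 1968 to 2639. With a pseudocount of 0.1, 1 member was higher in KM-H2. Library type as a term, added after seeing the data, gave 3 members lower and 0 higher with PMA. Leaving out a library left 1 in its condition, which is then assumed to vary like the others.

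The alternatives for comparisons between Hodgkin lines were all added after seeing the data. In KM-H2 against L428, members called lower were 2 and ran from 1 to 3 without any 1 library, and members called higher were 2 and ran from 1 to 2, with 1 and 1 under library type as a term. Small uncalled differences changed sign: without any 1 library IKZF3 ran from -0.76 to 0.01, BACH2 from -0.02 to 0.09 and TCF3 from -0.19 to 0.01 in KM-H2 against L1236, PAX5 from -0.13 to 0.85, SPIB from -0.33 to 0.63 and POU2AF1 from -0.04 to 0.00 in KM-H2 against L428, and POU2F2 from -0.03 to 0.16 in L428 against L1236.

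The column suffix as a replicate block, added after seeing the data, called 4506, 4317, 4471, 3456 and 2866 genes in KM-H2, L1236, L428, Reh_PMA and Namalwa, against 4456, 4251, 4404, 3265 and 2792 without it, and changed no member's call. The correlations of the deviations of libraries with the same suffix ran from -0.04 for Namalwa with Reh_PMA to 0.68 for L1236 with L428, not over 0.1 in every pair, so the suffix was treated as a number alone. Among the Hodgkin lines they were 0.43, 0.3 and 0.68. A replicate block of the suffix over all lines gave 3991, 3999 and 3279 genes in KM-H2 against L1236, KM-H2 against L428 and L428 against L1236, and one within the Hodgkin lines gave 4061, 4080 and 3334, against 3911, 3904 and 3216 without a block, with no change to a member call. Whether some of these libraries share a batch was not tested. Absolute depth is unknown, so no limit of detection is given for members listed at 0.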
